A study of Mus musculus with 4 samples.

Results

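RNA polymerase II (Pol II) was mapped at 10 immediate early genes, Fos, Fosb, Jun, Junb, Jund, Egr1, Atf3, Ier2, Dusp1 and Zfp36, in 4 organs (heart, kidney, liver, lung) from C57BL/6 mice with no labelled treatment. The genes were chosen by name, and all 10 were found among 21887 protein-coding genes placed on GRCm38.p6, the assembly behind mm10. The organs of 2 mice were flash frozen, crosslinked and sheared together in a microplate by ultrasound, and chromatin was precipitated with antibody 4H8 against the C-terminal domain of Pol II. Each organ is represented by 1 deposited list of called Pol II regions, so values carry counting error alone and differences between organs were left without a test. The sources used here do not say whether a list pools both mice, or their age and sex. In whole organs, fewer cells with Pol II at a gene and less Pol II per cell cannot be told apart.

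Immediate early genes are the first genes to be transcribed when a cell receives a growth factor, hormone or stress signal, and they need no new protein for their induction. Kinase cascades act on factors already bound at their promoters, among them serum response factor, which binds the CArG box, and CREB, which binds the cyclic AMP response element (CRE). Most are compact genes whose mRNAs are unstable, and handling of a tissue before it is frozen is a known stimulus for them. Fos and Fosb encode FOS proteins and Jun, Junb and Jund encode JUN proteins, which pair with each other as the transcription factor AP-1. Egr1 encodes a zinc finger factor, Atf3 a stress-induced member of the ATF family, and Ier2 a nuclear protein. Dusp1 encodes a phosphatase that switches MAP kinases off, and Zfp36 encodes tristetraprolin, which speeds the decay of AU-rich mRNAs, so both feed back on the response.

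Promoter sequences from RefSeq (GRCm38.p6), 250 bases before to 50 after the annotated start, matched 8 of the 10 genes; Egr1 and Ier2 had no entry. The 6 printed here are shown because their starts lay inside a called region in all 4 organs and because they hold the response elements that were searched for. Capitals mark matches on either strand to the CRE (TGACGTCA), its core (TGACG, which the CRE contains), the TATA box (TATAAA) and the CArG box.
Fos, chr12:85473640-85473939, plus strand: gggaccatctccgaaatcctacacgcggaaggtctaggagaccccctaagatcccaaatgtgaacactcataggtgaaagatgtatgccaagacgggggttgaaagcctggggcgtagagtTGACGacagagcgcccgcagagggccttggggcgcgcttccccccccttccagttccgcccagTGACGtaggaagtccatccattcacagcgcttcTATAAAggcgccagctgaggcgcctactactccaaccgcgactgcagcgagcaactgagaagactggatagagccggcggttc
Fosb, chr7:19309996-19310295, minus strand: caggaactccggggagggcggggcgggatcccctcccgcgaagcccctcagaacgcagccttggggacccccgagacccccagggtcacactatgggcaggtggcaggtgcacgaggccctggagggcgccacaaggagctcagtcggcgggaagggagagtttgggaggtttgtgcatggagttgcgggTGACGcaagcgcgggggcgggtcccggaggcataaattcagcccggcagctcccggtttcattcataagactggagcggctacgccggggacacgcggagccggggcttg
Junb, chr8:84978699-84978998, minus strand: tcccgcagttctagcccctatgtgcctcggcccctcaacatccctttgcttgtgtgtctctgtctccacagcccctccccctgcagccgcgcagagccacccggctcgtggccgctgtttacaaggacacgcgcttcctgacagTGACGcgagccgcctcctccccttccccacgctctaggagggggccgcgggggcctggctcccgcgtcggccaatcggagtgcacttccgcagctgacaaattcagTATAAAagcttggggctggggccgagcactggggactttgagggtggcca
Dusp1, chr17:26508423-26508722, minus strand: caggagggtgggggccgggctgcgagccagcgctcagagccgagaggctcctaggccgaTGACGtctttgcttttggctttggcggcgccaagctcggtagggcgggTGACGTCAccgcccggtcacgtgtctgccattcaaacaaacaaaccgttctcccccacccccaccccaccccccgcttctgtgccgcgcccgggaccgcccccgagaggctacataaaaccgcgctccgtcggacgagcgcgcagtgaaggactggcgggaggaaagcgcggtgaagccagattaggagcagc
Zfp36, chr7:28379179-28379478, minus strand: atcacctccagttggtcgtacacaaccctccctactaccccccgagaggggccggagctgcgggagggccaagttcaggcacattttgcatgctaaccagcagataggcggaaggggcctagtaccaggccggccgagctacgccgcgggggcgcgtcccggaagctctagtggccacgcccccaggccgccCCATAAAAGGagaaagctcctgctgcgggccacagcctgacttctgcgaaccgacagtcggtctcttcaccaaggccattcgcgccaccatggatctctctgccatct
Atf3, chr1:191183284-191183583, minus strand: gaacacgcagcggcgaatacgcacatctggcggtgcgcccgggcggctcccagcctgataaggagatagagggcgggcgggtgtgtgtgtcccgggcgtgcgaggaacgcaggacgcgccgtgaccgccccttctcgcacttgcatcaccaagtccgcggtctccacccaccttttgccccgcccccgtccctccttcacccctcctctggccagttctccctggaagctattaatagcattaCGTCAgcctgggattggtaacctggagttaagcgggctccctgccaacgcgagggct
The CRE was found in the Dusp1 promoter alone of the 8, 143 bases upstream of the start, and in 1.79% of 32851 promoters of this length. Its core was found in 5 of 8 (Fos, Fosb, Junb, Atf3 and Dusp1), against 20.8% of all promoters. The Fos promoter carried the core at 129 and 66 bases upstream and a TATA box at 33 bases upstream. The TATA box letters were found in Fos and Junb, against 13.6% of all promoters, but in Junb they began at the annotated start itself. A CArG match was found in Zfp36, 58 bases upstream, against 1.63%. No AP-1 site (TGANTCA, 7.81% of all promoters) or EGR site (GCGTGGGCG, 0.612%) was found in the 8 windows. The 8 promoters had a median GC content of 64.2%, against 52.7% over all promoters, and the motif shares were not adjusted for it. A match is a description of letters, and elements farther upstream lie outside these windows.

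Sequencing depth was 9880184 tags in the heart, 16589890.5 in the kidney, 20058183 in the liver and 13296938 in the lung. The calling thresholds corresponded to 18.2, 14.5, 14.0 and 16.5 tags per kb in a window of 500 bp, per 10000000 tags, so a level needed to be higher in heart than elsewhere to be called. The organ labels were checked against 8 marker genes per organ, and 8 of 8 were covered over at least 50% of their span in the organ they mark. Of the markers of another organ, at most 3 of 8 reached 50% (lung markers in liver). Endothelial markers were covered for 3 of 6 genes in the heart, 1 in the kidney, 1 in the liver and 3 in the lung, and leukocyte markers for 1, 1, 1 and 2 of 6. Smooth muscle and fibroblast markers were covered for 0, 1, 1 and 0 of 6.

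Between 7 and 8 of the 10 genes lay wholly inside called Pol II regions in each organ. With only the 50% of regions of highest score, that count was 5 in the heart, 6 in the kidney, 3 in the liver and 4 in the lung. In each organ, part of the count thus rests on regions of lower score. At least 50% of the span was covered for 9 genes in the heart, 9 in the kidney, 8 in the liver and 8 in the lung. The shares of all protein-coding genes meeting this rule were 16.1%, 21.1%, 21.9% and 15.1%, and those of genes with a span of up to 10 kb, a closer comparison for genes with a median span of 3034 bp, were 23.9%, 29.3%, 27.4% and 23.7%. Jun, Junb, Jund, Ier2, Dusp1 and Zfp36 were covered over 100% of their span in all 4 lists, a rule met by 2.32% of all genes and by 6.19% of those up to 10 kb. With Fos, 7 of the 10 genes passed 50% in all 4 lists, against 8.04% of all genes and 15.4% of those up to 10 kb.

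Taken organ by organ, 100% of the span was covered for 8 genes in the heart, 8 in the kidney, 7 in the liver and 7 in the lung. The background was 5.56%, 7.59%, 9.96% and 4.36% of all genes, and 12.8%, 16.7%, 18.8% and 11.0% of genes up to 10 kb. Both gene ends lay inside called regions for 9, 8, 8 and 8 genes, against 15.1%, 19.8%, 21.1% and 14.6% of all genes. For this rule and the counts of starts and 3′ ends that follow, shares of genes up to 10 kb, the closer comparison, were not computed. For the 8 genes whose strand is known, the annotated start lay inside a region for 8 of 8 in each of the 4 lists, against 37.9%, 44.5%, 44.5% and 38.6% of 17492 genes with a strand, and 26.2% in all 4 lists together. The annotated 3′ end was inside a region for 7, 6, 6 and 7 of the 8, against 19.1%, 23.9%, 24.7% and 19.2%. Every gap in coverage among these 8 genes was therefore inside the gene or at its 3′ end.

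**Figure D1:**
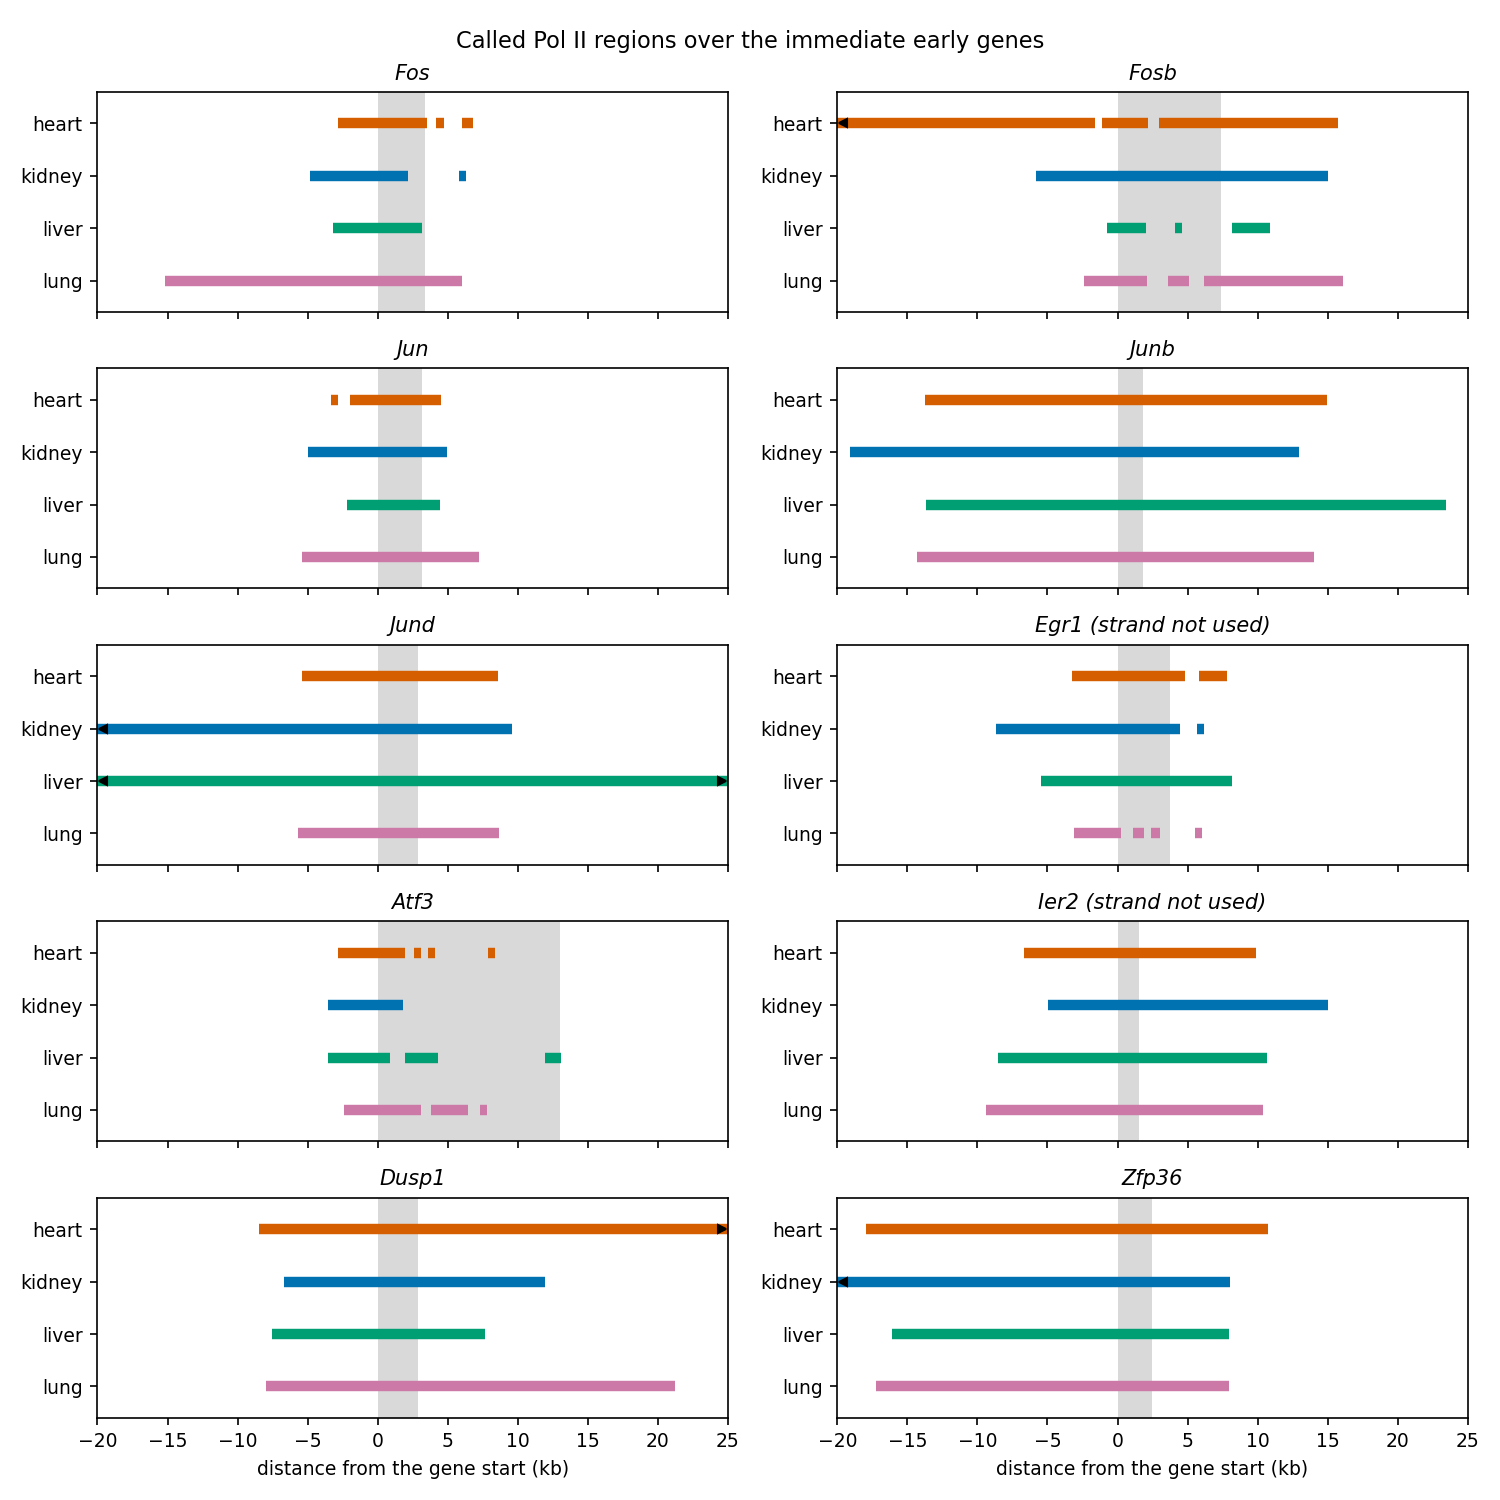
Called regions (bars) in heart, kidney, liver and lung around each gene, with distance in kb from the annotated start in the direction of transcription on the x axis; the gene span is grey, regions within 3 kb of the gene are drawn, and arrowheads mark regions that run out of the panel. For Egr1 and Ier2, whose strand was not used, 0 is the end with the lower coordinate. Atf3 has a region over its start in every organ and gaps in the rest of the gene, and Egr1 is broken into short regions in lung. The regions of Junb, Jund, Ier2, Dusp1 and Zfp36 exceed the genes on both sides.

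Coverage of the FOS genes was complete in some organs and partial in others. Fos (chromosome 12, 85473890 to 85477274, 3.38 kb) was covered over 100% in the heart, 64.0% in the kidney, 92.7% in the liver and 100% in the lung. The start was inside a region in all 4, whereas the kidney region stopped 1.22 kb and the liver region 0.248 kb before the 3′ end. In lung the Fos region was 21.2 kb long and began 15.2 kb upstream of the start, compared with 2.86 kb in heart, 4.86 kb in kidney and 3.19 kb in liver. By tag count, which grows with length, this was region 383 of 101051 in the lung list, while the Fos region held place 2859 in heart, 5326 in kidney and 6011 in liver. No other protein-coding gene was overlapped by the Fos regions.

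Fosb (chromosome 7, 19302696 to 19310118, minus strand) was covered over 89.4% in the heart, 100% in the kidney, 33.7% in the liver and 65.6% in the lung. In kidney a 20.9 kb region held the whole gene, and in liver a 2.76 kb region held the start, with a 0.5 kb region in the middle and nothing in the last 2.85 kb. The regions at its 3′ end ran on for 8.29 kb in heart, 7.63 kb in kidney and 8.68 kb in lung, into the neighbouring gene Rtn2, so Pol II past the end of Fosb cannot be told from that of Rtn2. Fosb was the only AP-1 gene of the 5 under 50% in any list.

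The JUN genes were covered over 100% in all 4 organs, and Jun alone had its regions to itself among protein-coding genes. The Jun regions (gene at chromosome 4, 95049036 to 95052222, minus strand) measured 6.51 kb in the heart, 9.91 kb in the kidney, 6.63 kb in the liver and 12.6 kb in the lung, and also overlapped Junos, an antisense non-coding gene that chromatin precipitation cannot separate from Jun. They ran 1.98, 4.99, 2.16 and 5.39 kb upstream of the start and 1.34, 1.73, 1.29 and 4.03 kb past the 3′ end. As at Fos, the longest region was that of lung.

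Junb (chromosome 8, 84976909 to 84978748, 1.84 kb) lay in regions of 28.7 kb in the heart, 32.1 kb in the kidney, 37.1 kb in the liver and 28.3 kb in the lung, which also held or reached Hook2, Prdx2 and Rnaseh2a. Jund (chromosome 8, 70697739 to 70700616) lay in regions of 14.0 kb in heart and 14.3 kb in lung, and its regions also overlapped Iqcn in every list. In kidney and liver it stood in regions of 79.7 kb and 106 kb that began 70.1 kb and 74.1 kb upstream and took in Gdf15, Pgpep1 and Lsm4, and these were regions 28 and 73 of their lists by tag count. Tags were counted by the authors per region, so the levels given for Junb and Jund are means over these regions and not of the genes alone.

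Egr1 was covered in part in 1 organ and Atf3 in part in all 4. Egr1 (chromosome 18, 34861207 to 34864956) was covered over 100% in heart, kidney and liver and over 45.3% in lung. The liver region measured 13.7 kb, the kidney region 13.1 kb and the heart region 8.05 kb, whereas lung had regions of 3.35, 0.802 and 0.636 kb. The lung region of 3.35 kb lay over the end with the lower coordinate and was the densest of the 3, at 24.0 tags per kb. Atf3 (chromosome 1, 191170296 to 191183333, minus strand, 13.0 kb, the longest of the 10) was covered over 26.4% in the heart, 13.7% in the kidney, 32.9% in the liver and 48.1% in the lung, so it passed 50% in no list. The region over its start was 4.76 kb long in the heart, 5.32 kb in the kidney, 4.42 kb in the liver and 5.50 kb in the lung. These regions stood at 37.2, 18.8, 22.6 and 23.8 tags per kb, and in kidney no other region lay in the 11.3 kb towards the 3′ end. The remaining regions inside Atf3 were 0.5 to 2.68 kb long, and a region of 1.15 kb reached the 3′ end in liver alone.

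Ier2, Dusp1 and Zfp36 were covered over 100% in every list, in regions several times longer than the genes. Ier2 (chromosome 8, 84661331 to 84662852, 1.52 kb) lay in regions of 16.5 kb in the heart, 20 kb in the kidney, 19.2 kb in the liver and 19.8 kb in the lung, which also reached Nacc1. Dusp1 (chromosome 17, 26505591 to 26508472, minus strand) lay in regions of 43.7 kb in the heart, 18.7 kb in the kidney, 15.2 kb in the liver and 29.2 kb in the lung. These overlapped no other protein-coding gene but did overlap the non-coding gene Gm34455. Upstream of Dusp1 the regions were of similar reach, 8.45, 6.72, 7.53 and 7.95 kb. Past its 3′ end they ran 32.3 kb in heart and 18.4 kb in lung, against 9.10 kb in kidney and 4.81 kb in liver. The heart and lung Dusp1 regions were 77th and 81st in their lists by tag count, and those of kidney and liver 698th and 1915th. Zfp36 (chromosome 7, 28376784 to 28379228, minus strand) shared its regions of 24.0 to 30.2 kb with Plekhg2, Med29 and Paf1 in all 4 lists. As for Junb and Jund, the levels given for Ier2, Dusp1 and Zfp36 are means over these regions and not of the genes alone.

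Levels are given as tags per kb of gene span, scaled by the authors to 10000000 tags. The tags of a region were shared out evenly along it, and parts outside regions counted as 0. All levels are thus built from region means, those of Fos, Fosb, Jun, Egr1 and Atf3 included. Fos in lung takes the mean of a region of 21.2 kb, against 6.36 kb in heart. The intervals are exact 95% Poisson intervals, which cover counting error only and treat tags as independent. They rest on the tags shared out to the gene span and not on all tags of a region. Where a region is longer than the gene, they are therefore wider than the counting error of the region mean. Fos stood at 41.0 (34.5 to 48.5) in the heart, 14.4 (11.4 to 17.9) in the kidney, 23.3 (19.8 to 27.2) in the liver and 24.3 (20 to 29.4) in the lung. Jun stood at 55.7 in the heart, 27.3 in the kidney, 37.1 in the liver and 36.2 in the lung. For both, heart was highest and kidney lowest, and the intervals of liver and lung overlapped, as did those of lung and kidney for Jun. Dusp1 stood at 60.2 (51.6 to 70.0) in the heart, 40.0 (34.5 to 46.1) in the kidney, 36.4 (31.6 to 41.7) in the liver and 35.3 (29.6 to 41.8) in the lung, and Jund at 56.5, 37.2, 39.5 and 32.0. Here heart stood apart and the intervals of neighbours among the other 3 organs overlapped.

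Junb and Ier2 were the most even genes. Junb stood at 52.1 in the heart, 43.6 in the kidney, 43.7 in the liver and 38.2 in the lung, a ratio of 1.36 from highest to lowest, and Ier2 at 53.6, 36.7, 39.6 and 38.0, a ratio of 1.46. The intervals of every neighbouring pair in their orders overlapped. Zfp36 had the highest level of the 10 in each list, with 70.5 (60.3 to 81.9) in the heart, 43.9 (37.7 to 50.9) in the kidney, 70.0 (62.8 to 77.8) in the liver and 41.9 (35.2 to 49.6) in the lung. Heart and liver formed a high pair and kidney and lung a low pair. These are means over regions shared with Plekhg2, Med29 and Paf1, so the level of Zfp36 alone is not known. Only in liver was its interval apart from those of the other 9 genes. Elsewhere it overlapped those of Junb, Jund, Ier2 and Dusp1, and in heart and lung that of Jun as well.

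Fosb, Egr1 and Atf3 differed most between organs. Fosb stood at 27.3 (23.7 to 31.4) in the heart, 19.3 (17 to 22.0) in the kidney, 5.93 (4.76 to 7.31) in the liver and 14.7 (12.4 to 17.3) in the lung, with heart 4.60 times liver. Heart, kidney and lung took part or all of this level from regions shared with Rtn2, and liver did not. Egr1 stood at 33.9 (28.3 to 40.4) in the heart, 18.6 (15.4 to 22.3) in the kidney, 38.0 (33.7 to 42.7) in the liver and 8.57 (6.19 to 11.6) in the lung. Liver was at 4.44 times lung for Egr1, and the intervals of liver and heart overlapped. Atf3 stood at 7.66 (6.23 to 9.33) in the heart, 2.56 (1.93 to 3.33) in the kidney, 5.27 (4.43 to 6.23) in the liver and 9.49 (8.10 to 11.1) in the lung, and was the only gene of the 10 with its highest value in lung, where the interval overlapped that of heart. For these genes the value follows the covered share as well as the density: by the region with the largest overlap, Atf3 was at 37.2 in heart and 23.8 in lung, which turns the order of these organs, Fosb in liver was at 18.5 and Egr1 in lung at 19.2.

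**Figure D2:**
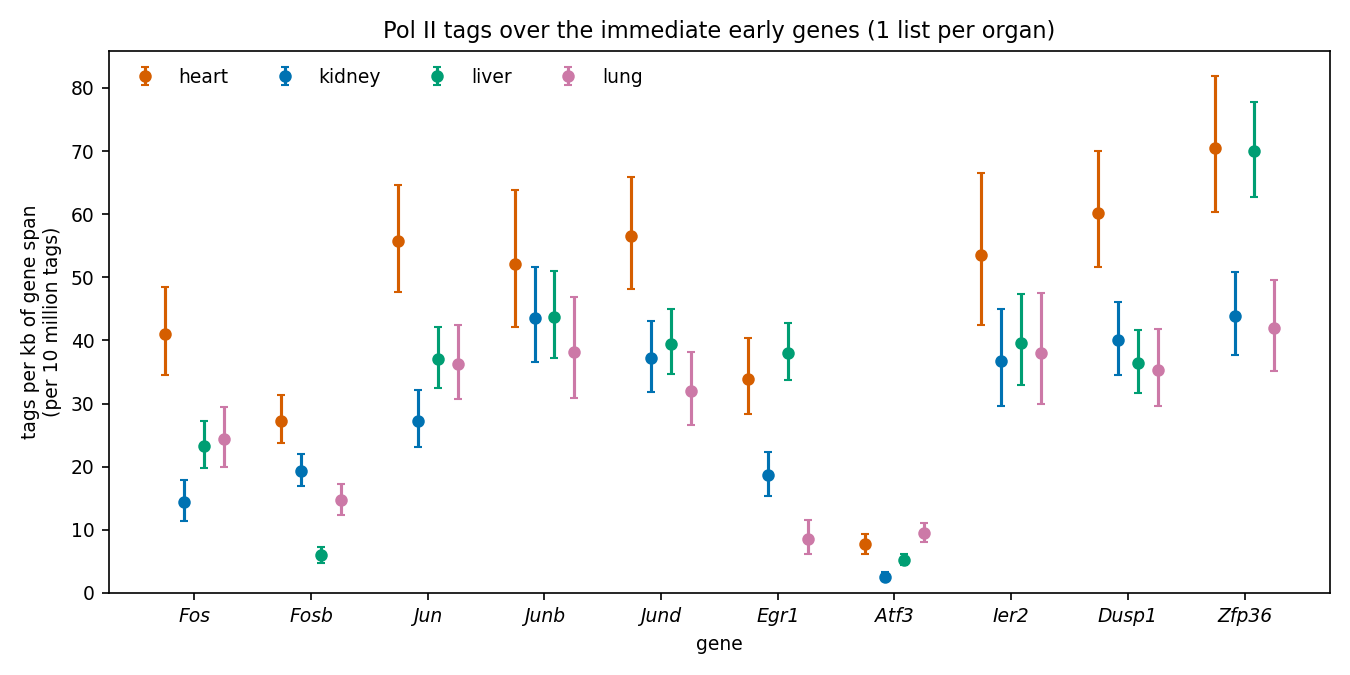
Tags per kb of gene span, per 10000000 tags (y axis), for each gene (x axis) in the 4 organs; points are the value of the 1 list per organ and bars are exact 95% Poisson intervals for counting error. Heart is highest for 8 genes, from 27.3 at Fosb to 70.5 at Zfp36, liver is highest for Egr1 and lung for Atf3.

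Heart had the highest level of the 4 organs for 8 of the 10 genes, and for 5 of these (Fos, Fosb, Jun, Jund and Dusp1) its interval lay apart from that of the second organ. Of the 7 genes covered at 50% or more in all 4 lists, heart was highest for 7, where 48.5% of the 1759 genes covered in this way had their highest level in heart. The heart list also has the fewest tags and the highest calling threshold per kb, and its level cannot be told apart from these. Among genes covered in both lists of a pair, the median ratio of heart over kidney was 1.52 for the immediate early genes and 1.17 for all genes, that of heart over liver 1.39 and 1.06, and that of heart over lung 1.68 and 1.44. A ratio of at least 1.5 was reached over kidney by 6 of 9 genes (background 25.8%), over liver by 3 of 8 (21.1%) and over lung by 6 of 8 (46.1%). These ratios share the heart list. Liver exceeded kidney at least 1.5 times at 3 of 8 genes, Fos, Egr1 and Zfp36, against a background of 25.9%.

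Ranked by tags per kb within each list, the genes had a median rank of 168 in the heart, 622 in the kidney, 862 in the liver and 74.5 in the lung. Among the top 10% of protein-coding genes were 9 of the 10 in the heart, 6 in the kidney, 7 in the liver and 8 in the lung, where the rule itself takes 10% of genes. With only genes of up to 10 kb ranked, which leaves out Atf3, the counts were 8, 6, 7 and 7. Jun, Junb, Jund, Ier2, Dusp1 and Zfp36 were in the top 10% in all 4 lists, as were 3.13% of all genes. Among the top 1% (background 0.996%) were 6 genes in the heart, 3 in the kidney, 1 in the liver and 6 in the lung. Zfp36 was the only member in the top 1% of all 4 lists, as were 0.0959% of all genes. By the mean of regions shared with other genes, Zfp36 ranked 9th in lung, 21st in heart, 32nd in liver and 52nd in kidney. In lung Junb ranked 22nd, Ier2 25th, Jun 47th, Dusp1 53rd and Jund 96th, although each of the 5 had fewer tags per kb in lung than in heart. Of these, Junb, Ier2 and Jund also share their regions with other protein-coding genes in every list. Dusp1 ranked 73rd in heart, 126th in kidney and 949th in liver, and Jun 119th, 997th and 902nd. At the other end, Atf3 ranked 4768th, 8650th, 6416th and 3344th in heart, kidney, liver and lung, and Fosb 6117th in liver.

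**Figure D3:**
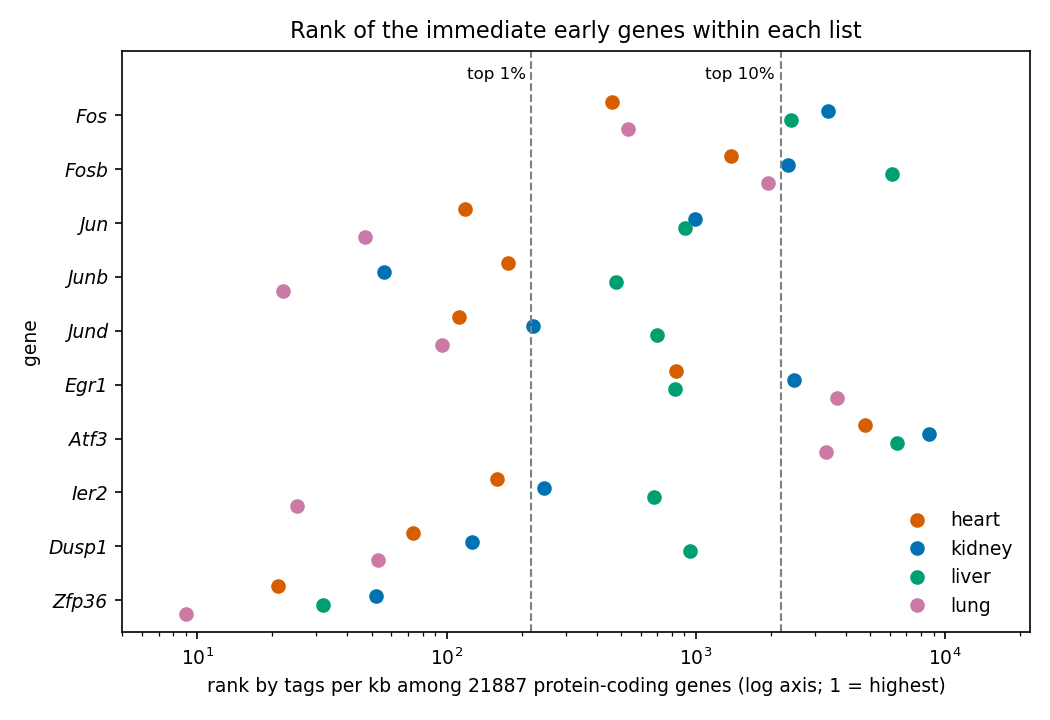
Rank of each gene by tags per kb among 21887 protein-coding genes (x axis, log scale, 1 is highest) in each of the 4 lists; dashed lines mark the top 1% and the top 10%. Lung and heart each hold 6 genes left of the 1% line, kidney 3 and liver 1, which is Zfp36.

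The level needed for a rank differed between lists: the top 1% began at 49.5 tags per kb in the heart, 37.2 in the kidney, 52.5 in the liver and 29.3 in the lung (the 99th percentile over all genes). Heart and lung, with 6 genes each in the top 1%, were also the lists with the fewest tags, and their endothelial markers summed to 156 and 81.4 tags per kb, against 25.5 in kidney and 31.7 in liver. Egfl7 was the largest of these markers in each organ, at 56.6 in the heart, 20.6 in the kidney, 24.0 in the liver and 31.8 in the lung. Cdh5 was at 0 in kidney, and Cdh5, Tek and Emcn were at 0 in liver. Not all were high in heart and lung: Emcn stood at 0.627 and 0.150 there, against 0.415 in kidney, and Tek at 4.08 and 5.16. The leukocyte markers, with Cd68 the largest of the 6 (42.8, 27.5, 29.4 and 29.5), summed to 49.5 in the heart, 39.4 in the kidney, 30.0 in the liver and 52.1 in the lung, with Ptprc, Lyz2 and Cd3e at 0 in heart and liver, Lyz2 at 0 in kidney, Cd79a at 0 in liver and Cd3e at 0 in lung. The part of depth and of these cell types in the ranks was not tested.

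Among the 10 genes, Jund, Dusp1, Ier2 and Junb had the most similar levels over the 4 organs, with distances of 0.23 to 0.38 (Euclidean, on log2(tags per kb + 1) over 4 organs) between any pair of them. Outside the 10 and outside their own regions, the gene closest to Junb was Irf2bpl (0.10), followed by Dusp6 (0.14), a phosphatase gene for ERK kinases, and Ppp1r10 (0.14). Closest to Zfp36 was Id3 (0.22), which encodes an inhibitor of helix-loop-helix factors, with 71.4 tags per kb in the heart, 42.9 in the kidney, 61.6 in the liver and 38.7 in the lung. Brd2 was among the 3 nearest genes of both Ier2 (0.25) and Dusp1 (0.13). The profile of Fos was closest to Sf1 (0.35), Paxx (0.36) and Rela (0.36), that of Fosb to Ssbp4 (0.24), that of Jun to Myl6b and Myl6 (0.30 each, under shared regions), and that of Jund to Sema3b (0.12). Egr1 was closest to Trim25 (0.34) and Atf3 to Spi1 (0.21). With 4 values per gene these distances describe levels and nothing further.

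Other genes of the immediate early response and its control were taken from lists of 123 distinct genes. Of these, at least 50% of the span was covered for 61 in the heart, 63 in the kidney, 59 in the liver and 65 in the lung, and 54, 46, 37 and 55 were among the top 10% by tags per kb. The shares of all genes covered in this way, against which each list below is to be read, were 16.1%, 21.1%, 21.9% and 15.1%, and those of genes up to 10 kb were 23.9%, 29.3%, 27.4% and 23.7%. Of 25 other immediate early transcription factor genes, 17 were covered in the heart, 16 in the kidney, 16 in the liver and 17 in the lung, and 13 in all 4. Id3, Id1 and Hes1 led this list by their mean level, all covered over 100% in all 4 organs, and Egr3 and Egr4, relatives of Egr1, had no region in any list. Of 26 other immediate early effector genes, 16, 19, 17 and 18 were covered. Mcl1, which encodes a survival protein of the BCL2 family, led them with 75.8 tags per kb in the heart, 49.4 in the kidney, 53.7 in the liver and 49.6 in the lung, and ranked 2nd of all genes in lung. Errfi1, which encodes an inhibitor of the EGF receptor, was uneven, at 13.9 in the heart, 52.9 in the kidney, 90.7 in the liver and 27.8 in the lung. Arc, Ptgs2 and Ccl2 were at the bottom of this list, with 0 to 3.16 tags per kb in the 4 organs.

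Of 17 genes of negative feedback and mRNA decay, 9 were covered in the heart, 10 in the kidney, 7 in the liver and 11 in the lung. Zfp36l1 and Zfp36l2, the relatives of Zfp36, and Dusp6 were covered over 100% in all 4 lists, whereas Dusp2 had no region and Dusp5 and Dusp8 had at most 11.2 tags per kb. The other 3 relatives of Dusp1 in the list, Dusp16, Dusp4 and Dusp10, named after their values were seen, stood between these by mean level. Of 16 AP-1 and ATF relatives, 6, 5, 4 and 8 were covered, which in liver is close to the 21.9% of all genes. Atf4, Mafg and Mafk led this list, and Batf3 had no region in any organ. Of 20 upstream kinase and serum response partner genes, which are long (median span 63.9 kb), 5, 5, 7 and 5 were covered, which in kidney is close to the 21.1% of all genes. Elk1, a partner of serum response factor, had no region. Of 10 genes known for induction by neuronal activity, 1 was covered in the heart, 1 in the kidney, 3 in the liver and 0 in the lung, against 16.1%, 21.1%, 21.9% and 15.1% of all genes.

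Of 11 heat shock genes, which are compact (median span 4.48 kb), 7, 7, 5 and 6 were covered, against the 23.9%, 29.3%, 27.4% and 23.7% of genes up to 10 kb. Hspa8 led them with 73.6 tags per kb in the heart, 51.3 in the kidney, 54.8 in the liver and 33.6 in the lung. The stress-inducible gene Hspa1a was covered over 32.5%, 30.5%, 14.4% and 0%, and reads from it and its near-identical copy Hspa1b are uncertain because the handling of tags with more than 1 match is not given in these sources. Nr4a1 and Klf4, immediate early transcription factor genes singled out after their values were seen, differed between organs far more than Jun or Ier2. Nr4a1 stood at 29.3 tags per kb in the heart, 3.13 in the kidney, 0.824 in the liver and 10.6 in the lung, and Klf4 at 39.4, 3.22, 0 and 24.4. In both, heart and lung were the high organs and liver the lowest. Nfil3 and Myc of the same list, also singled out after their values were seen, had liver highest and lung lowest. In both, heart stood second and close to kidney. Nfil3 stood at 22.2, 21.4, 45.5 and 8.23, and Myc at 6.46, 6.42, 19 and 4.20. The lists were chosen with earlier results of these data known, and their counts describe these libraries.

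**Figure D4:**
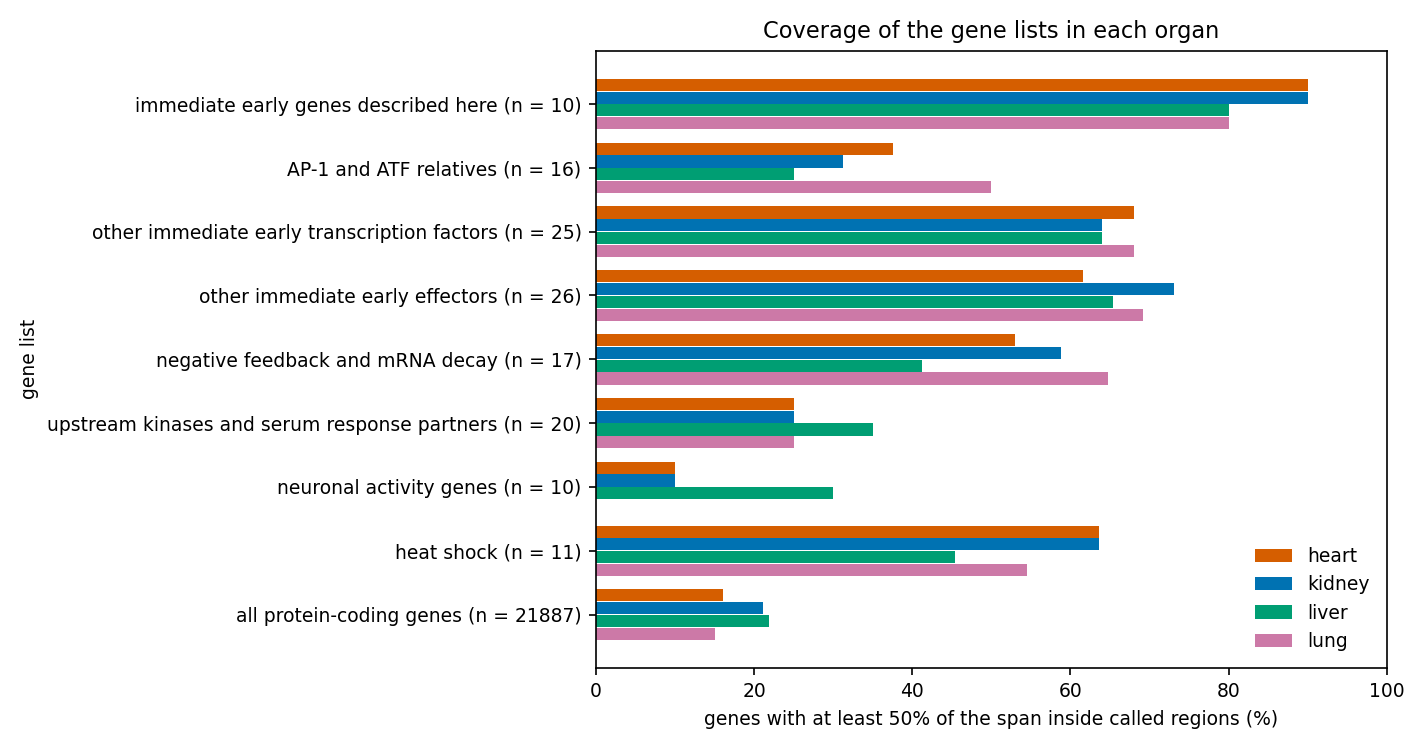
Share of the genes of each list with at least 50% of the span inside called regions (x axis, percent) in heart, kidney, liver and lung (bars), with all 21887 protein-coding genes at the bottom. The 10 immediate early genes reach 9, 9, 8 and 8 of 10, other immediate early transcription factors 17, 16, 16 and 17 of 25, and neuronal activity genes 1, 1, 3 and 0 of 10.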

How the data were processed

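The submitters' processing notes name Bowtie2 2.2.8, HOMER 4.8 and the mm10 build. Per the file headers, the authors ran findPeaks in its histone style with no control library in the recorded command, joining windows of 500 bp that passed a Poisson p of 0.001 and using no more than 1 tag per bp. The signal deposited by the authors for each region is its tag count per 10000000 tags, and the deposited score and the deposited ratio (clonal fold change) come from the caller, per the file headers, as do the region lengths.

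Gene spans came from the RefSeq table of GRCm38.p6 for chromosomes 1 to 19, X and Y, and strands from the RefSeq promoter table. Coverage, tags per kb, runs past gene ends and ranks were computed with Python 3.11.15, pandas 2.3.3, numpy 2.4.6 and scipy 1.17.1. The interval code was tested on simulated regions, where 100% of 2000 queries of each kind equalled per-base counts. There is 1 list per organ, so no test was made and no replicate left out. The members, lists and settings were chosen with earlier results of these data known. All 10 members are named. Of each other list, the 3 genes with the highest and up to 3 with the lowest mean of log2(tags per kb + 1) could be named, and for each member the 3 nearest profiles. Neighbours under a member's region could also be named. The gene-end run was to use the strand, which was not available for Egr1 and Ier2.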

Additional observations from a re-analysis of the deposited data

How the results depend on the processing

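With the 50% of regions of each list that had the highest score, 100% of the span was covered for 5 genes in heart, 3 in liver and 4 in lung, at least 50% for 3 in liver and 4 in lung, both ends were run past for 4 in liver and 5 in lung, and 3 were in the top 10% in liver. The other 8 counts under this setting were 6 each, lower than or equal to the reported ones and within 1.5 times of them. The cause was not tested. The median score of the members' leading regions was 10.75 in the heart, 14.5 in the kidney, 14.75 in the liver and 13.25 in the lung, against 10, 13, 15.5 and 12 over each list. Narrowing the rank rule from the top 10% to the top 1% cannot raise a count. It left 3 genes in kidney, 1 in liver and 6 each in heart and lung. With these, 94 recomputed counts stayed within 1.5 times the reported ones and 10 did not. The settings under which every count stayed within 1.5 times were leaving out regions under 10 tags per 10000000, equal numbers of regions by tag count, joining gaps of up to 1 kb, widening spans by 1 kb, thresholds of 25% and 90%, the top 5%, ranking compact genes only and the region with the largest overlap.

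Of 120 recomputed levels of single genes, 10 left their counting interval. With the region of largest overlap these were Fos in kidney (22.5 tags per kb), Fosb in liver (18.5) and lung (23.5), Egr1 in lung (19.2) and Atf3 in all 4 organs (13.8 to 37.2), since uncovered parts then no longer count as 0. With spans widened by 1 kb they were Fos in liver (19.3) and Atf3 in kidney (3.47). Depth limits the lists, because Pol II below the calling threshold leaves no region.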
